A study of Mus musculus with 9 samples.

Results

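The 67 genes described here are the mouse genes whose symbols start with Hist1h, Hist2h, Hist3h or Hist4h, out of 24296 genes with counts. They were taken by symbol, with earlier results of these data known. They comprise 6 genes of the linker histone H1, 19 of H2A, 18 of H2B, 11 of H3 and 13 of H4, of which 3 (Hist1h2aj, Hist1h2al and Hist3h2bb-ps) are annotated as pseudogenes. On the GRCm38 build 55 of them lie on chromosome 13, 8 on chromosome 3, 3 on chromosome 11 and 1 on chromosome 6. Single cells of whole left knee joints from 9 female 129/Sve mice, 8 weeks old, were profiled with Seq-Well, in which each cell settles with a bead in a tiny well and the bead's primers take up its polyadenylated RNA. The 4 healthy mice (numbered 1 to 4) had phosphate-buffered saline injected in that joint, and whether they had also been sensitized is not given. The 5 sick mice (numbered 1, 3, 4, 5 and 6) had been sensitized to methylated bovine serum albumin (mBSA) and then injected with it in the joint, which triggers antigen-induced arthritis. All joints were taken 1 week after the injection.

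Core histones H2A, H2B, H3 and H4 form the protein spool around which DNA is wound, and H1 binds the DNA between spools and where it enters and leaves them. Most genes of these clusters are transcribed strongly while DNA is copied, and their messenger RNAs end in a stem-loop bound by Slbp instead of a poly(A) tail. Dividing cells of the marrow, such as early B-lineage cells and erythroid progenitors, are known for high histone synthesis. Mki67 encodes a protein of dividing cells and is used as their marker.

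The stem-loop is shown first because a library made from polyadenylated RNA is not designed to capture messages that end in it. The letters GGCNCTTNTNAGNGCC, read on the sense strand of the GENCODE M21 transcripts, were found in 42 of the 67 genes (4 of 6 H1, 10 of 19 H2A, 10 of 18 H2B, 8 of 11 H3 and 10 of 13 H4). Of 58797 annotated coding transcripts, 56 (0.0952%) hold them. In the lines below the stem-loop letters are in capitals and 5 bases on each side in lower case.
Hist1h1c: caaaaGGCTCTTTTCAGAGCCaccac
Hist1h1d: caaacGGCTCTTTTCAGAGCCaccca
Hist1h1e: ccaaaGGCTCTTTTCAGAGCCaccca
Hist1h2ae: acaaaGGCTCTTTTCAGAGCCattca
Hist1h3c: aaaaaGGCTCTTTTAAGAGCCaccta
Hist1h4c: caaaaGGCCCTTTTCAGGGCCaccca
Hist2h2ac: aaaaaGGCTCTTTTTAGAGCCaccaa
The variant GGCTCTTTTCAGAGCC stood in 24 genes, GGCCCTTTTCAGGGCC in 7 and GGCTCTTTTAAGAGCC in 6. Of the 25 genes without the letters, 13 have gene models that stop at the stop codon, Hist1h1b among them, so these models do not reach the place where a stem-loop would be. A poly(A) signal (AATAAA or ATTAAA) stood in the last 60 bases of 15 of the 67 genes, 12 of which also hold the stem-loop. Of all coding transcripts, 51.0% had one there. The histone genes were scored over any of their transcripts, the background by single transcript. In the 13 models that stop at the stop codon the last 60 bases are coding, so no signal after it could be seen. The 42 genes with the stem-loop letters held 44.6% of all histone counts, with a median of 328.5 counts per gene. The median was 464 for the 25 without them. Those 25 include the 13 models that stop at the stop codon and the 3 pseudogenes. These values therefore do not compare messages with and without a stem-loop. How far these counts stand for the total histone RNA of a cell was not tested.

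The 150 bases upstream of 3 H1 genes are shown because Hist1h1a and Hist1h1c passed the test between sick and healthy mice and Hist1h1b held the most counts. Sequences and starts are from RefSeq (GRCm38.p6). Hist1h1a is read from chr13:23763518-23763667 on the plus strand, Hist1h1b from chr13:21780626-21780775 on the minus strand and Hist1h1c from chr13:23738657-23738806 on the plus strand. Capitals mark the CCAAT box, the TATA box letters TATAAA and the H1 box letters AAACACA, each on either strand.
Hist1h1a: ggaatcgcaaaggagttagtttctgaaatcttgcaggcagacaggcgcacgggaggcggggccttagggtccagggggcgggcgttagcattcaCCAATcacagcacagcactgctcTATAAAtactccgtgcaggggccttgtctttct
Hist1h1b: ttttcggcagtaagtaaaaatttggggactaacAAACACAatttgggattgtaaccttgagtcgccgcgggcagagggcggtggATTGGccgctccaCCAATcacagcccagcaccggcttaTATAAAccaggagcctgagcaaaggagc
Hist1h1c: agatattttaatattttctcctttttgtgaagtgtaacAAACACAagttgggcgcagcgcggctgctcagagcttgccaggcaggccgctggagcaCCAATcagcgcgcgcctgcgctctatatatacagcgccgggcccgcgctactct
Promoter windows of 300 bases (250 before to 50 after the start) were matched for 57 of the 67 genes. CCAAT on either strand stood in 48 of the 57, against 37.4% of 32851 promoters, namely in all 45 matched H1, H2A, H2B and H3 genes and in 3 of 12 H4 genes. TATAAA stood in 34 of the 57, against 13.6% of all promoters. The letters AAACACA, searched after the data had been seen, stood in 5 of the 6 H1 promoters (not in that of Hist1h1a) and in 4 of the other 51, against 7.18% of all. ATTTGCAT, also searched afterwards, stood in 13 of the 57, 7 of them H2A and 6 H2B genes, against 1.74% of all. Some H2A and H2B genes lie head to head with their starts under 250 bases apart. Windows of such neighbours can overlap, so the same site can be counted for both genes. The numbers of genes with a motif are therefore not numbers of separate sites.

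The 16749 kept cells (4549 healthy, 12200 sick) gave 896930 to 4675909 counts per mouse, and 75691 of all counts were of histone genes. In the healthy mice 17.6 to 39.7% of counts were haemoglobin and 5.48 to 10.3% were mitochondrially encoded, against 10.2 to 27.9% and 3.09 to 6.05% in the sick mice. A cluster of 2041 cells led by haemoglobin, mitochondrial and ribosomal RNA-type genes stayed unnamed. It held 5.33, 38.5, 42.9 and 50.6% of the cells of healthy mice 1 to 4 and 2.21 to 8.52% of those of the sick mice, so that healthy mouse 1 stood with the sick mice. There were 8 cell barcodes found in more than 1 mouse. Each result that rests on the healthy group is therefore also given with healthy mouse 1 as the only control, or with named clusters only, where that changes it.

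Histone counts were uneven between genes. Hist1h1b, an H1 gene (chr13:21779883-21780625, minus strand), held 18044 counts, 23.8% of all histone counts. Next came Hist1h2ae with 6658, Hist1h2an with 4995, the H2A pseudogene Hist1h2al with 4912 and Hist1h1c with 4323 counts, and these 5 genes held 51.4% of the total. The 6 H1 genes together held 39.9%, the H2A genes 35.1%, H2B 11.3%, H3 7.09% and H4 6.62%. Per kilobase of the longest annotated transcript, the mean level over the 9 whole joints was 1399 CPM (counts scaled to 1000000 per mouse) for Hist1h1b, 757 for Hist1h2al, 714 for Hist1h2an and 482 for Hist1h2ae. Counts come from 3′ ends in this method, so a level per kilobase is not a molar amount. At least 1 count in every mouse was found for 62 of the 67 genes, and 14 had fewer than 100 counts in all. Genes within a core histone class are near copies: a median of 66.5% of the 60-base windows of an H2A gene also occur in another histone gene, 59.7% for H3, 37.5% for H2B and 31.6% for H4, so counts of single core histone genes are uncertain. For H1 the median was 0.937%, but Hist1h1e shared 30.6% of its windows, 23.4% with the H2B gene Hist1h2be, whose gene model overlaps it on the same strand, and its counts are uncertain too, while Hist1h1a and Hist1h1b shared none and Hist1h1c 7.59%.

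Cells were grouped by a clustering that left out the histone and cell cycle genes, and each class is called by the markers that lead it. Levels by class are a description, since the classes come from the same cells. Erythroid progenitor-like cells, led by Car1 and Klf1, had the highest summed histone level of the named classes, with a median over the 9 mice of 6890 CPM (range 4597 to 8714). B-lineage-like cells, led by Ebf1, Vpreb1 and Igll1, had 5794 CPM (3485 to 9251) and late erythroid-like cells 5625 CPM. Progenitor-like cells, made of a granulocyte progenitor-like cluster led by Ctsg, Mpo and Elane and a smaller early haematopoietic progenitor-like cluster led by Pf4, Ctla2a and Angpt1, had 3081 CPM (2389 to 4737), immature neutrophil-like cells 2816 CPM and mature neutrophil-like cells, which no longer divide, 1612 CPM (1492 to 2397). The order from erythroid progenitor-like down to mature neutrophil-like cells followed medians only, and the ranges of neighbours overlap. The unnamed cluster stood at 5854 CPM and the whole joint at 4111 CPM. H1 genes gave a median of 37.2 to 46.8% of the histone counts in every class listed. Skeletal muscle-like cells, which should not divide, gave 4724 CPM over 21 pooled healthy cells and 3976 CPM over 161 pooled sick cells, with no replicate check, near the whole-joint level. Fibroblast-like cells, pooled in the same way, gave 3196 CPM over 58 healthy and 1987 CPM over 218 sick cells, below that level. Free RNA of other cells was not measured apart, and its part in these levels was not tested.

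**Figure D1:**
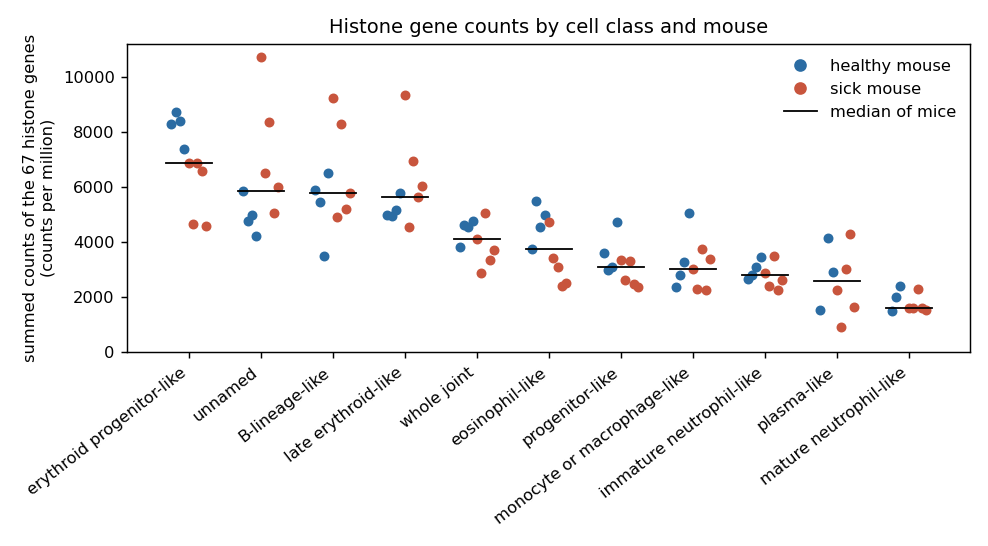
Summed counts of the 67 histone genes in CPM (plain total counts, linear axis from 0) for each cell class and for the whole joint; each point is 1 mouse and each line the median of the mice with at least 20 cells of the class. Erythroid progenitor-like cells have the highest median of the named classes and mature neutrophil-like cells the lowest, while the ranges of neighbouring classes overlap.

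The first comparison was of sick with healthy mice in the whole joint. In it most histone genes, of H1 and of the core classes, stood lower in sick mice, most clearly Hist1h1a, an H1 gene (chr13:23763666-23764406, plus strand). Levels in the comparisons of sick with healthy mice are TMM-scaled CPM, in which the trimmed mean of gene ratios between mice is set to a common level. Hist1h1a stood at 80.5, 153, 229 and 161 CPM in healthy mice 1 to 4 and at 59.1, 41.6, 71.0, 60.7 and 95.4 CPM in sick mice 1, 3, 4, 5 and 6. Sick mouse 6 lay above healthy mouse 1, and otherwise the groups did not overlap. It fell by 1.25 on the log2 scale (SE 0.26, edgeR quasi-likelihood test, adjusted p = 0.0342). It was 1 of 50 tested histone genes and the 1 that passed the threshold of 0.05 on the adjusted p, and none rose. Of all 10323 genes tested, 0.300% fell and 0.639% rose. A whole-joint value cannot tell fewer cells of a type from less RNA per cell. Mature and immature neutrophil-like cells, whose median histone levels lay below that of the whole joint, differed in share. Mature ones made up 1.39 to 7.31% of cells in healthy mice 2 to 4 and 13.1 to 24.7% in sick mice. Immature ones made up 3.92 to 6.51% and 13.2 to 19.4%. Healthy mouse 1 stood with or near the sick mice, at 19.0% mature and 13.2% immature. The part of these shares in the whole-joint result was not tested.

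The other H1 genes lay on the same side without passing the test. Hist1h1e, another replication-dependent H1, stood at 185, 225, 304 and 346 CPM in the healthy and 179, 106, 161, 124 and 166 CPM in the sick mice. The groups did not overlap, and the log2 fold change was -0.85 (SE 0.20, adjusted p = 0.0609), with the limit that some of its sequence is shared with Hist1h2be. Hist1h1b stood at 753, 1414, 1591 and 1739 CPM in the healthy and 827, 476, 1470, 638 and 803 CPM in the sick mice, so that healthy mouse 1 lay among the sick mice (log2 fold change -0.71, SE 0.29, adjusted p = 0.291). For Hist1h1c the log2 fold change was -0.67 (adjusted p = 0.105) and for Hist1h1d -0.76 (adjusted p = 0.151), and Hist1h1t was not tested for its low counts.

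Among the core histones no gene passed the test. The median log2 fold change was -0.49 over 15 tested H2A genes, -0.41 over 13 H2B, -0.23 over 8 H3 and -0.71 over 9 H4 genes, and -0.48 over all 50 histone genes against -0.02 over all genes. Of the 50, 47 had a lower fitted level in sick mice, against 52.0% of all genes, and 23 were lower at an unadjusted p under 0.05, against 6.38%. No histone gene was higher at that level. Every sick mouse lay under every healthy mouse for 3 of the 50, Hist1h1e, Hist2h4 and Hist1h2bl, against 2.01% of all genes. The H4 genes Hist1h4a (log2 fold change -1.05, edgeR adjusted p = 0.0624) and Hist2h4 (-0.95, edgeR adjusted p = 0.0744) came nearest the threshold. Both had smaller p than the H1 genes Hist1h1b, Hist1h1c and Hist1h1d. The H4 gene Hist1h4c stood at 49.2, 64.0, 111 and 107 CPM in the healthy and 38.3, 30.7, 50.7, 54.2 and 52.3 CPM in the sick mice (log2 fold change -0.87, SE 0.24, adjusted p = 0.119). The H2A gene Hist1h2ae, by contrast, stood at 208, 353, 424 and 503 CPM against 276, 240.0, 390.3, 332 and 392 CPM, with wide overlap (log2 fold change -0.19, SE 0.22, adjusted p = 0.743). Hist1h2bc was at -0.40 (adjusted p = 0.231) and Hist1h3c at -0.56 (adjusted p = 0.233).

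These directions depend on the scaling and on 3 of the healthy mice. With plain total counts in place of TMM the median of all genes moved to 0.28 and that of the 50 histone genes to -0.15, so the gap to the other genes stayed but 15 of the 50 then lay on the higher side. Hist1h1a was then at -0.89 (adjusted p = 0.0593), no histone gene passed, and the calls over all genes went from 66 higher and 31 lower to 111 and 18. With haemoglobin counts left out of the totals the all-gene median was 0.04, the histone median -0.41 over 53 tested genes, and Hist1h1a still passed (-1.17, adjusted p = 0.0396). With healthy mouse 1 as the only control the histone median was 0.10 and Hist1h1a was at -0.29 (adjusted p = 0.860). Without healthy mouse 1, 7 histone genes fell. The Hist1h1a call was lost without any 1 of healthy mice 2, 3 and 4 and sick mice 1, 3 and 5. With only the cells of named clusters the histone median was -0.32 and Hist1h1a was at -1.10 (adjusted p = 0.0683). The part of the unnamed cluster in the whole-joint result beyond this was not tested.

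**Figure D2:**
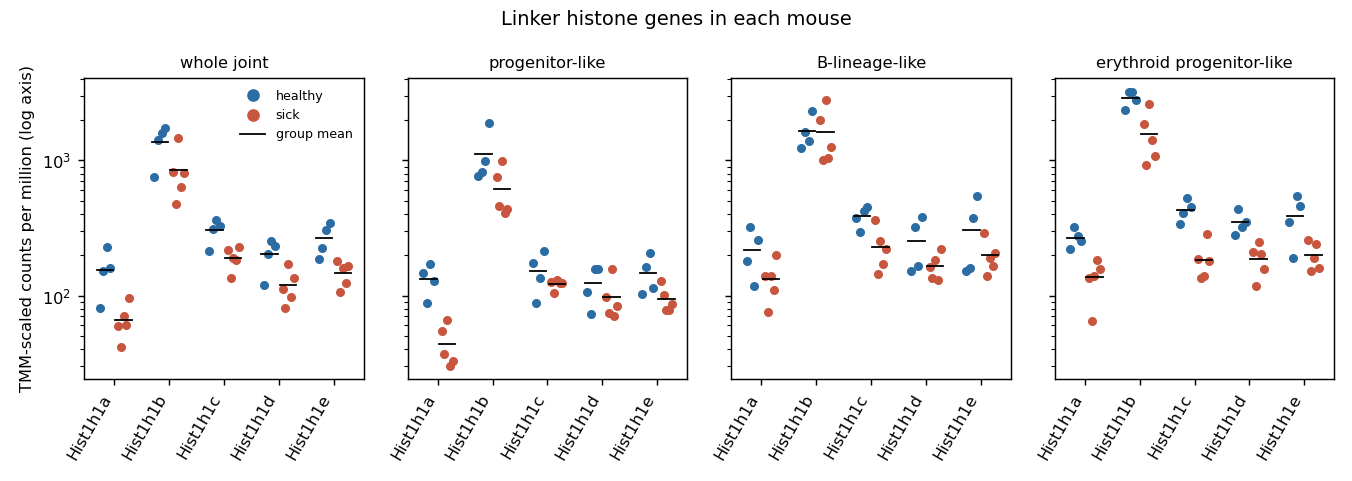
TMM-scaled CPM (log axis) of the 5 tested H1 genes in each mouse, in the whole joint and in 3 cell classes; points are mice, blue healthy and red sick, and lines are group means. Hist1h1a in progenitor-like cells and Hist1h1c in erythroid progenitor-like cells separate the groups completely, while Hist1h1b overlaps in every panel.

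In progenitor-like cells, compared so that the share of this class in the joint does not enter, Hist1h1a was again the histone gene that passed. It stood at 146, 88.2, 170.3 and 129 CPM in healthy mice 1 to 4 and at 54.4, 37.1, 65.4, 30.3 and 32.7 CPM in the sick mice. All sick mice lay below all healthy mice, and healthy mouse 1 lay with the other healthy mice. It fell by 1.67 on the log2 scale (SE 0.32, edgeR quasi-likelihood test, adjusted p = 0.0158). It was 1 of 17 histone genes tested, of which none rose, against 0.146% of all genes lower and 0.268% higher. The median of the 17 was -0.40, 16 lay on the lower side against 51.6% of all genes, 5 were lower at an unadjusted p under 0.05 against 4.82%, and 1 did not overlap against 1.05%. The 5 tested H1 genes had log2 fold changes from -1.67 to -0.38, Hist1h1b among them at -0.86 (adjusted p = 0.151), while Hist1h4d was at 0.38 (adjusted p = 0.832). With total counts Hist1h1a was at -1.55 (adjusted p = 0.0166), and the calls over all genes went from 11 higher and 6 lower to 18 and 6. Leaving out healthy mouse 3, or one of sick mice 3 and 5, took the adjusted p to 0.0895, 0.0769 and 0.0651, and so ended the call, as did using healthy mouse 1 as the only control, where the log2 fold change was -1.72.

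In erythroid progenitor-like cells the linker histone Hist1h1c (chr13:23738808-23740367, plus strand) passed the test. It stood at 341, 409, 527 and 449 CPM in the healthy and 186, 135, 139, 283 and 180.0 CPM in the sick mice, with no overlap. It fell by 1.19 on the log2 scale (SE 0.24, edgeR quasi-likelihood test, adjusted p = 0.0130). Hist1h1c was 1 of 25 histone genes tested, of which none rose, against 0.180% of all genes lower and 0.240% higher. All 25 lay on the lower side, against 51.9% of all genes, with a median of -0.45, and 10 were lower at an unadjusted p under 0.05 against 5.16%. The groups did not overlap for 6 of the 25 (Hist1h1a, Hist1h1c, Hist1h1d, Hist1h2al, Hist1h4a and Hist2h2ac), against 1.56% of all genes. All 5 tested H1 genes had log2 fold changes from -1.19 to -0.87, and Hist1h1b stood at 2349, 3202, 3205 and 2819 CPM in the healthy and 1847, 931, 2639, 1415 and 1080 CPM in the sick mice (adjusted p = 0.112). Here 1 sick mouse lay within the healthy range. In plain CPM the summed H1 level was 3971 ± 189 (SD, n = 4) in healthy and 2443 ± 807 (SD, n = 5) in sick mice. With total counts the all-gene median was 0.15 and the histone median -0.28, 22 of the 25 lay on the lower side, Hist1h1c was at -1.01 (adjusted p = 0.0546) and the calls over all genes went from 8 higher and 6 lower to 9 and 0. Leaving out one of healthy mice 3 and 4 or sick mouse 3 also ended the Hist1h1c call, as did the fit with healthy mouse 1 as the only control (-0.86), a fit without the filter on low counts (-0.91, adjusted p = 0.0947) and a finer clustering (-1.01, adjusted p = 0.0616). In the finer clustering the class also held a cluster of 207 cells, 2 healthy and 205 sick, led by Hspa1a and Hspa1b. It was therefore not the same set of cells. In a coarser clustering the cluster of that name held 4709 cells in place of 874 and so was another set of cells, with Hist1h1c at -0.41 (adjusted p = 0.298). The class as described here held 26 to 184 cells per mouse.

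In B-lineage-like cells none of the 17 histone genes tested passed the edgeR quasi-likelihood test, against 2.20% of all genes lower and 0.655% higher. With no adjustment of p, 5 of the 17 were lower at 0.05, against 6.73% of all genes, while 0 were higher. DESeq2 also called none. Of the 17, 12 lay on the lower side against 48.6% of all genes, with a median of -0.42, and none had every sick mouse below every healthy mouse, against 2.71%. Hist1h1c stood at 374, 293, 424 and 449 CPM in the healthy and 363, 145, 252, 169.7 and 222 CPM in the sick mice (log2 fold change -0.80, SE 0.26, adjusted p = 0.111). Without sick mouse 1 it passed, at -1.02 (adjusted p = 0.0109). Hist1h1b did not separate the groups (log2 fold change -0.06, SE 0.26, adjusted p = 0.966), and Hist1h2af, an H2A gene, was at 0.79 (adjusted p = 0.419). The direction here turned with the scaling. With total counts the all-gene median was 0.51, the histone median was 0.07, 10 of the 17 lay on the higher side and Hist1h2af rose by 1.30 (adjusted p = 0.037), while the calls over all genes went from 14 higher and 47 lower to 239 and 32. With haemoglobin left out of the totals the all-gene median was 0.21 and the histone median -0.24, and the calls were 35 higher and 32 lower. Relative to the median of all genes, the histone genes lay lower under each of these scalings.

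**Figure D3:**
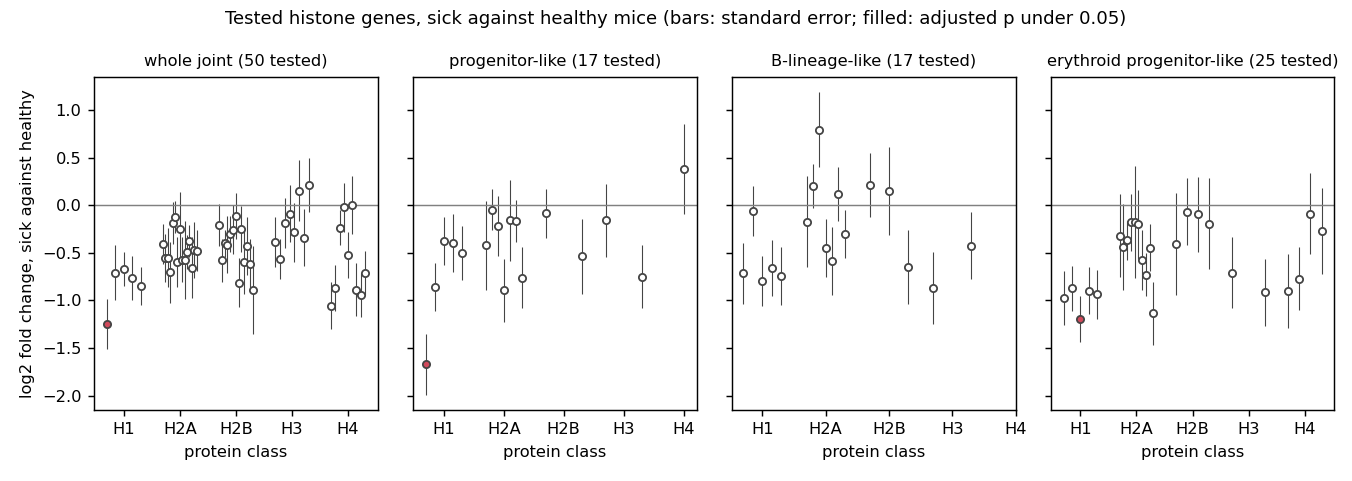
Log2 fold changes of every tested histone gene, sick against healthy mice, with standard errors, by protein class in the whole joint and 3 cell classes (TMM scaling); filled points passed the adjusted p of 0.05. Of the tested genes 47 of 50, 16 of 17, 12 of 17 and 25 of 25 lie below 0, and 3 points are filled, all of them H1 genes; with total counts the B-lineage-like panel would have 10 of 17 above 0.

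The 4 sets share mice and, for the whole joint, cells, so they are not separate evidence. The share of H1 in the histone counts, which no scaling enters, was 44.3 ± 1.72% (SD, n = 4) in healthy and 38.6 ± 5.05% (SD, n = 5) in sick whole joints. The sick mice split here. Mice 1 and 4 were at 42.3 and 45.4%, within the healthy range of 41.9 to 45.9%, and mice 3, 5 and 6 at 34.5, 33.9 and 36.7%. In progenitor-like cells the shares were 43.0 ± 3.78% and 35.1 ± 5.85%, and in erythroid progenitor-like cells 48.5 ± 3.00% and 40.6 ± 6.76%. The share in B-lineage-like cells is not given here, and Hist1h1b had a log2 fold change of -0.06 there. Of the H1 genes Hist1h1b held the most counts, so it weighs most in these shares. It passed the main test between sick and healthy mice in none of the 4 sets.

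Genes that act on histones or with them were read from lists that were drawn up with earlier results known. None of these genes passed in any of the sick against healthy comparisons. In the whole joint, the median log2 fold change was -0.04 over 9 tested variant histones, -0.03 over 12 genes of histone gene transcription and 3′ processing, -0.04 over 19 chaperones, -0.07 over 43 S phase genes and -0.14 over 59 genes of G2 and M phase. Slbp, which binds the stem-loop, was at -0.10 (SE 0.19, adjusted p = 0.845) and the H1 variant H1f0 at -0.58 (SE 0.27, adjusted p = 0.369). Nasp, a chaperone that binds H1 as well as H3 and H4, was at -0.48 (SE 0.18, adjusted p = 0.247), the mitotic kinesin Kif11 at -0.69 (SE 0.18, adjusted p = 0.0974) and Mki67 at -0.41 (SE 0.20, adjusted p = 0.390).

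Histone genes and Mki67 were then compared within mice, by summing cells with and without a Mki67 count (UMI, a counted molecule). Cells with Mki67 held more of nearly every histone gene. Hist1h1b stood at 276, 1110, 1133 and 1177 CPM in Mki67-negative cells of healthy mice 1 to 4 and at 1088, 1708, 1829 and 2079 CPM in their Mki67-positive cells. In sick mice 1, 3, 4, 5 and 6 it stood at 349, 207, 629.8, 213 and 322 CPM without and at 1104, 674, 1991, 975 and 1119 CPM with Mki67. It was higher with Mki67 in 9 of 9 mice, by 1.46 on the log2 scale (SE 0.12, edgeR quasi-likelihood test with the mouse as a block, adjusted p = 1.34e-10). Of 44 histone genes tested 43 rose, with a median of 1.43, against 19.6% of all 7801 genes. The exception was Hist1h2aa, an H2A gene (0.37, adjusted p = 0.0531). All 5 tested H1 genes rose, with Hist1h1d at 1.68 (SE 0.11) and Hist1h1a at 1.51 (SE 0.11) leading by p, followed by the H2A genes Hist1h2ai at 1.35, Hist1h2ae at 1.44 and Hist1h2af at 1.57. So did 12 of 13 H2A, 12 of 12 H2B, 5 of 5 H3 and 9 of 9 H4 genes, among them Hist1h3c at 1.56 and Hist1h4c at 1.51. The H2B gene Hist1h2bc was the least raised, at 0.29 (SE 0.09, adjusted p = 0.0143), in 8 of 9 mice. With total counts the all-gene median was 0.20, the histone median 1.58 and all 44 rose, while calls over all genes went from 1527 higher and 1644 lower to 2602 and 1077. Cells with Mki67 were deeper, with a median of 1117 counts against 758. Among cells thinned to 800 counts, 27 of the 28 histone genes tested rose, with a median of 1.40. Cells were not separated by type here, so the contrast also holds differences between cell types.

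The lists moved in the same contrast, in which 19.6% of all genes rose. They share genes, and a shared gene counts in each list that holds it. H2afx, H2afz, Cenpa and Anp32e are also in the G2 and M phase list. Slbp, Casp8ap2, Nasp and Chaf1b are also in the S phase list. All 41 tested S phase genes and all 56 tested G2 and M phase genes rose, with Rrm2, a ribonucleotide reductase subunit, at 1.42 and the mitotic gene Cenpf at 1.99. Slbp rose by 1.05 (SE 0.10) and 6 of the 7 tested genes of histone transcription and 3′ processing rose, as did 13 of 18 chaperones, with Asf1b at 1.02, Ssrp1 at 0.85, Chaf1b at 0.69 and Nasp at 0.53. Of 9 variant histones 4 rose, H2afx at 1.08, Cenpa at 0.99, H2afz at 0.34 and H2afv at 0.29, and H3f3b, a replacement H3 gene, fell. H1f0 was at 0.28 (adjusted p = 0.153).

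Within single classes fewer histone genes had counts enough for the test. In B-lineage-like cells all 6 tested rose, against 5.94% of all genes: Hist1h1b by 0.87 (SE 0.13, adjusted p = 4.25e-06), Hist1h1c by 1.03, Hist1h1e by 0.96, Hist1h2ae by 0.99, Hist1h2an by 0.93 and Hist1h2al by 0.85. In progenitor-like cells 3 of 7 rose, against 3.52% of all genes: Hist1h1b by 0.77 (SE 0.11, adjusted p = 2.04e-05), Hist1h2ae by 0.72 and Hist1h2al by 0.54. With total counts 2 of the 7 rose, and calls over all genes went from 58 higher and 15 lower to 51 and 25. In erythroid progenitor-like cells of 8 mice 4 of 5 rose, against 15.3% of all genes: Hist1h1b by 1.42 (SE 0.17, adjusted p = 1.59e-08), Hist1h1d by 1.17, Hist1h2an by 1.06 and Hist1h2ae by 0.82, while Hist1h2al was at 0.55 (adjusted p = 0.104). Healthy mouse 1 had fewer than 5 Mki67-negative cells of this class and was left out. With total counts the all-gene median was -0.18 and the histone median 0.89, 4 of the 5 rose, and calls over all genes went from 92 higher and 41 lower to 70 and 74. Hist1h1b was higher with Mki67 in every mouse in each of the 3 classes. Cells with Mki67 were deeper within classes too, with a median of 939.5 against 709 counts in B-lineage-like, 2033 against 1077 in progenitor-like and 1728 against 944 in erythroid progenitor-like cells. Thinned to 800 counts, few histone genes were left to test. In B-lineage-like cells 1 of 2 rose, Hist1h2ae by 1.02, while Hist1h1b was at 0.57 (adjusted p = 0.0539). In progenitor-like cells Hist1h1b, the 1 gene tested, rose by 0.86, and in erythroid progenitor-like cells 3 of 3 rose, Hist1h1b by 1.26.

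**Figure D4:**
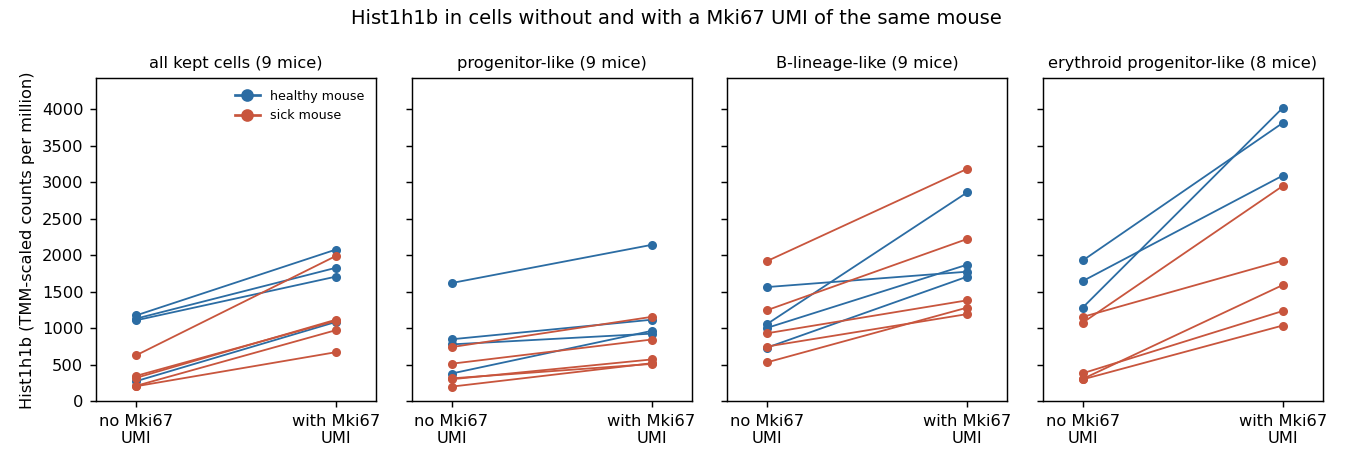
Hist1h1b in TMM-scaled CPM (linear axis from 0) in cells without and with a Mki67 count; each line joins both sums of 1 mouse, blue healthy and red sick. All 9 lines climb in all kept cells, in progenitor-like and in B-lineage-like cells, as do all 8 in erythroid progenitor-like cells; in all kept cells healthy mice 2, 3 and 4 start at 1110 to 1177 and the other mice at 207 to 630.

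The Mki67 gap was wider in sick than in healthy mice for 46 of 49 tested histone genes. The share of all genes with a wider gap is not given here, so this count alone does not set the histone genes apart. No histone gene passed the edgeR quasi-likelihood test of this difference in either direction. Of all genes, 0.0427% passed with a wider gap in sick mice and 0.0534% with a narrower one. With p not adjusted and a threshold of 0.05, 17 of the 49 had a wider gap, against 5.00% of all genes, and none a narrower one. Without a filter on low counts 2 passed. The difference for Hist1h1b was 0.80 (SE 0.19, adjusted p = 0.109). The Mki67-negative cells of healthy mice 2, 3 and 4 held Hist1h1b at 1110 to 1177 CPM against 207 to 629.8 CPM in those of the other 6 mice, and these are the mice in which the unnamed cluster held 38.5 to 50.6% of cells. Its part in the difference was not tested.

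Co-detection was then counted in single cells. Of 16749 cells, 6540 had both a Mki67 and a histone count, 1007 Mki67 alone, 5149 a histone count alone and 4053 neither. In 9648 cells with at least 800 counts, each thinned to 800 (7101 shallower cells were left out, 1837 healthy and 5264 sick), these numbers were 3600, 740, 3149 and 2159. After thinning, a median over mice of 82.8% of Mki67-positive cells had a histone count against 58.6% of Mki67-negative cells, and the share was higher in Mki67-positive cells in 9 of 9 mice. Within the 3 classes described above the gap between the group means was wider in the sick mice. In erythroid progenitor-like cells the mean shares with and without Mki67 were 87.8 and 76.6% in sick mice (higher in 4 of 5) and 91.6 and 91.0% in healthy mice (higher in 1 of 4). In B-lineage-like cells they were 88.2 and 68.0% in sick mice (5 of 5) and 80.2 and 79.8% in healthy mice (2 of 4). In progenitor-like cells they were 82.8 and 66.2% in sick mice (5 of 5) and 76.4 and 72.9% in healthy mice (2 of 4). Healthy mouse 1 had 85.7 and 60.9% in this class, a wider gap than that of the sick means. With it as the only control the direction therefore turned in progenitor-like cells. In immature neutrophil-like cells the gap was not wider in sick mice. The shares there were 76.5 and 60.6% in sick mice (5 of 5) and 76.5 and 55.0% in healthy mice (4 of 4). In late erythroid-like cells they were 84.8 and 53.7% in sick mice (5 of 5) and 87.6 and 69.0% in healthy mice (3 of 4). Healthy mice had few cells per class, and the difference between the groups in this gap was not tested. As classes that should not divide, skeletal muscle-like cells (97 cells of 6 mice after thinning) had a histone count in a median of 70.4% and a Mki67 count in 44.2% (20 to 60% by mouse), and mature neutrophil-like cells in 46.8 and 22.9% (11.4 to 30%). Fibroblast-like cells had them in 55.6 and 26.0% (Mki67 16.7 to 54.2% by mouse, with healthy mice 3 and 4 at 54.2 and 35.3%), and the whole joint in 70.6 and 44.2%. The unthinned median depth was 1113 counts in healthy and 820 in sick skeletal muscle-like cells, 726.5 in mature neutrophil-like cells and 891 in the whole joint. The Mki67 share of progenitor-like cells had a median of 36.8% (27.7 to 50%). By median it lay below that of the skeletal muscle-like cells and above those of the mature neutrophil-like and fibroblast-like cells. Its range overlapped that of each of these classes. How far the share exceeds background therefore depends on the reference class. The share of B-lineage-like cells, 51.0% (34.9 to 73.3%), overlapped the range of the skeletal muscle-like cells. That of erythroid progenitor-like cells, 69.2% (59.1 to 75.0%), had only its lowest mouse within that range.

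The share of cells with a Mki67 count did not differ detectably between the groups. In all kept cells it was 40.0, 42.8, 56.4 and 49.4% in healthy mice 1 to 4 and 49.5, 40.2, 52.6, 39.2 and 44.2% in the sick mice, with full overlap. The means were 47.1 ± 7.34% (SD, n = 4) and 45.1 ± 5.81% (SD, n = 5), a difference of -2.01 points (exact permutation test over 126 splits, two-sided, p = 0.667, adjusted p = 0.944 over 4 comparisons; the smallest p possible is 0.00794). The difference was -2.67 points in progenitor-like cells (exact permutation p = 0.643), 2.06 in B-lineage-like cells (exact permutation p = 0.833) and -0.169 in erythroid progenitor-like cells (exact permutation p = 0.944). In these last cells the shares were 69.2, 59.1, 71.4 and 75.0% in healthy and 72.8, 63.6, 68.4, 71.0 and 66.7% in sick mice.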

How the data were processed

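The authors deposited 1 table of whole-number counts per gene and cell, with the mouse in each cell's name. Per the labels' protocols and the submitters' processing notes, reads were converted with bcl2fastq, merged over sequencing rounds and processed with Picard, the Drop-seq protocol version 1.0.1 and STAR. The labels name GRCh38 in one place and the notes GRCm38 and mm9; the symbols are those of mouse genes, the annotation behind the counts and the strand setting are not given in the sources used here, and coordinates printed here come from GENCODE M21 and RefSeq on GRCm38, not from the counts. Whether overlapping genes shared reads cannot be told.

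Cells with under 200 genes or over 20% mitochondrial counts were removed, which took out 2. The lowest deposited cell had 397 counts and 199 genes, and the median kept cell had 892 counts. Doublets were not removed. Cells were clustered with scanpy 1.11.5 and leidenalg 0.10.2 (2000 variable genes, 30 components, 20 neighbours, resolution 1), leaving out 170 histone and cell cycle genes, and clusters were named from lists of markers.

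Counts were summed per mouse (classes with at least 20 cells) and tested with edgeR 4.0.16 in R 4.3.3: filterByExpr, TMM scaling, quasi-likelihood test, Benjamini-Hochberg adjustment over all genes tested, threshold 0.05. Every adjusted p on gene levels is from this test. Sums of Mki67-positive and Mki67-negative cells (at least 5 of each per mouse) were fitted with the mouse as a block. Shares of cells were compared with exact permutation tests over mice. The scripts were tested on simulated data. There the sick against healthy tests recovered 49.5% of 2-fold changes in the whole joint and 38.0% in progenitor-like cells. In B-lineage-like cells they recovered 42.1% and in erythroid progenitor-like cells 37.3%. Of 4-fold changes they recovered 89.2 to 97.2%. A gene that did not pass may therefore still differ by 2-fold. The mice are the replicates, as numbered in the labels. Alternatives were DESeq2 1.42.0, other filters, scalings, clusterings and thinning, and leaving out each mouse. Both scalings by total counts were additions made once TMM was seen to move the levels.

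The histone genes, the lists and the tests were chosen with earlier results of these data known. Genes named are those past the threshold between sick and healthy mice, the 12 with the highest level, the 2 highest of each protein class, the 5 with the smallest p in each Mki67 comparison and, of each other list, the 3 with the smallest p in the whole joint and in the Mki67 comparison. Genes named outside this rule (Hist1h1t, Hist1h2aa, Hist1h2be, Hist1h2bl, Hist1h4a, Hist2h2ac, Hist2h4 and H3f3b) were chosen after their values were seen.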

Additional observations from a re-analysis of the deposited data

Results flagged for a closer look

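Of 88 sets of 4 or 5 mice checked for a mouse far from the rest by Dixon's criterion, 4 held one, and chance alone gives about 5% of sets. All values are summed plain CPM. Among the H4 genes in the whole joint, sick mouse 3 stood at 211 and the next lowest sick mouse at 243. Among the H2B genes in B-lineage-like cells, sick mouse 1 stood at 888 and the other sick mice at 567 to 637. Among the H1 genes in erythroid progenitor-like cells, healthy mouse 2 stood at 4255 and the other healthy mice at 3868 to 3894. Among the H2B genes in erythroid progenitor-like cells, sick mouse 5 stood at 766 and the other sick mice at 447 to 532.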

How the results depend on the processing

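No direction that passed a test reversed. Counts of histone genes past the threshold were as follows under the alternatives that moved them. In the whole joint (main count 1) DESeq2 gave 5, no filter on low counts 3, counts thinned to the smallest total 2, and total counts, the replicate block, healthy mouse 1 as only control and named clusters 0 each. In progenitor-like cells (main count 1) DESeq2, the replicate block and healthy mouse 1 as only control gave 0. DESeq2 gave Hist1h1a no adjusted p there. In B-lineage-like cells (main count 0) total counts gave 1 higher and Leiden resolution 2 gave 1. In erythroid progenitor-like cells (main count 1) no filter, total counts, healthy mouse 1 as only control and Leiden resolutions 0.5 and 2 gave 0. For Mki67-positive against Mki67-negative cells, thinning to 800 gave 27 in all kept cells (28 tested), 1 in progenitor-like and 1 in B-lineage-like cells, no replicate block gave 1 in progenitor-like cells, and in erythroid progenitor-like cells no filter gave 15 and Top2a in place of Mki67 gave 2. The difference of this contrast between the groups gave 2 with no filter. The cause was not tested, other than that thinning leaves fewer genes and cells.

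Leaving out 1 mouse at a time gave 0 to 7 histone genes in the whole joint (7 without healthy mouse 1), 0 to 2 in progenitor-like, 0 to 1 in B-lineage-like and 0 to 2 in erythroid progenitor-like cells. For the Mki67 comparison it gave 40 to 44 in all kept cells, 2 to 4 in progenitor-like, 4 to 7 in B-lineage-like and 3 to 4 in erythroid progenitor-like cells. The difference in the share of Mki67-positive cells ranged from -4.39 to 1.09 points in all kept cells, -5.28 to 0.942 in progenitor-like, -3.23 to 6.37 in B-lineage-like and -3.37 to 1.93 in erythroid progenitor-like cells, and with Mki67 or Top2a it was 1.59 in the last.

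Deviations of same-numbered mice correlated at 0.158, -0.0236 and 0.0490 over 11502 genes, and those of differently numbered mice at -0.126 to 0.119. So few pairs cannot settle whether same-numbered mice shared a batch. The replicate block on the mouse numbers left 0, 0, 0 and 1 histone genes in the 4 comparisons of sick with healthy mice. Classes set by marker gates were not run, since too few healthy mice had 20 such cells. Depth limits single genes: 14 of the 67 had under 100 counts.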
